A study of Mus musculus with 2 samples.

Results

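The small leucine-rich proteoglycans are a family of secreted matrix proteins, of which 10 genes were taken by name: *Dcn*, *Bgn*, *Aspn*, *Lum*, *Fmod*, *Omd*, *Kera*, *Prelp*, *Ogn* and *Epyc*. They make up 10 of the 21243 named genes that the array probes, and each has 1 probe. Total RNA of incisors from wild-type mice and from *Sox21* KO mice was labelled with Cy3 and hybridized to 2 one-colour Agilent arrays, 1 for each genotype. Both groups are labelled as postnatal day 0, whereas the methods of the study give the next day, and the labels list no treatment. The sources used here give neither the sex of the animals nor how many were pooled for an array. The study set the KO incisor beside the wild-type incisor to find which genes depend on *Sox21*, a transcription factor of the dental epithelium. With 1 array per genotype no difference has a replicate check, so no test was run, and the precision of every value is limited by the number of arrays.

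These proteins carry a core of leucine-rich repeats, which in most members binds to collagen fibrils and sets how thick the fibrils grow and how they are spaced. Most members also carry chains of chondroitin, dermatan or keratan sulfate, which hold water and bind growth factors. In teeth they are known from the predentin, the dental pulp, the dental follicle and the periodontal ligament, all of which derive from mesenchyme. Decorin, biglycan and asporin form the first class of the family, lumican, fibromodulin, osteoadherin, keratocan and prolargin form the second, and mimecan and epiphycan belong to the third.

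The quantity used below is the processed signal of a probe, a fluorescence intensity in arbitrary units from which the scanner software had removed the background. For comparison between arrays it was divided by the 75th percentile of the array, which was 268 for wild-type and 276 for *Sox21* KO, and this quotient is called the normalized signal. The log2 ratio is *Sox21* KO minus wild-type throughout. A gene was counted as measured when the software marked its probe as well above background on the wild-type and on the KO array. By this rule 8 of the 10 members and 13802 genes in all were measured. The scanner error is the software's own error of a signal, in which a fixed share of 10% of the signal dominates for bright spots. On the array 269 measured probes are spotted repeatedly, and over the probes of like signal the SD of the log2 ratio between spots of 1 probe gives a second error, here called the repeat-spot SD. Both errors cover the measurement on the slide and leave out the spread between animals.

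The targeted gene was lower on the array labelled *Sox21* KO at both of its probes, with signals of 1362 on the wild-type and 659 on the KO array at the brighter probe and of 286 and 103 at the other. Both probes were still well above background on the KO array, and whether they lie in the deleted part of the gene is not given in the sources used here. The labelled tissue was borne out by its markers, since all 10 tooth genes of a list that holds enamel and dentin genes were measured on both arrays. Markers of connective tissue, bone, cartilage, tendon, muscle, epithelium and endothelium were measured too, so the samples hold more than dental cells.

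Of the 8 measured members 7 had a higher normalized signal in *Sox21* KO incisor, with log2 ratios between 0.08 for *Fmod* and 0.51 for *Omd*. The exception was *Kera*, with a log2 ratio of -0.64. Over all measured genes 52.4% had a log2 ratio above 0. The median over the 8 members was 0.17, against 0.01 over all measured genes. None of the members was 1.5-fold higher, which 3.2% of measured genes were, and 1 member was at least 1.5-fold lower, which 2.99% of measured genes were. At 2-fold the members numbered 0 in either direction, against 0.739% of measured genes higher and 0.667% lower. The log2 ratio went past its own scanner error for 4 members, and past 2 such errors for *Omd* and *Kera*. In RNA of a whole tissue, fewer cells of a type and less RNA per cell cannot be told apart, which holds for each of these values.

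**Figure D1:**
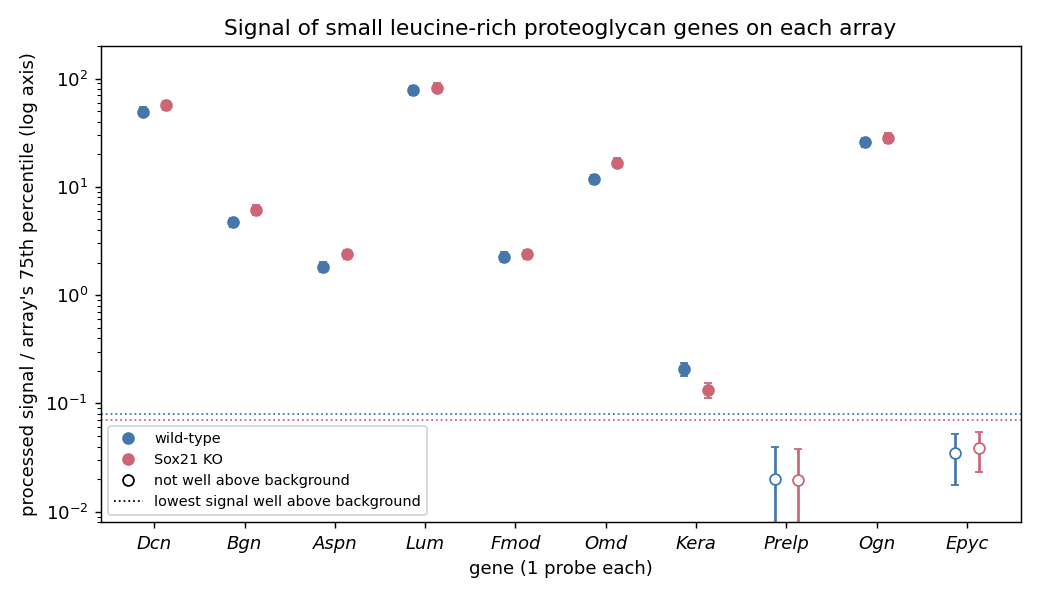
Normalized signal of the 10 genes on the wild-type and the *Sox21* KO array, on a log axis in units of the 75th percentile of the array, in the order of the classes of the family. Bars are the scanner error (for *Kera* its mean over the spots of the probe), open circles mark signals not well above background, dotted lines give the lowest signal that passed this mark, and the lower bars of *Prelp* run below the axis. For 7 genes the KO point lies above the wild-type point, *Kera* shows the opposite order, and *Prelp* and *Epyc* lie under the dotted lines.

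*Dcn* encodes decorin, a dermatan sulfate proteoglycan that limits the lateral growth of collagen fibrils and binds transforming growth factor beta. Its signal was 13277 in wild-type and 15551 in *Sox21* KO, which gives normalized signals of 49.6 and 56.4. The log2 ratio was 0.19, under the scanner error of 0.20 and over the repeat-spot SD of 0.05 in 13 probes of like signal. Of all measured genes 21.4% were at least as high in *Sox21* KO. *Bgn* encodes biglycan, the closest relative of decorin in the family, which takes part in bone formation. The signal of *Bgn* was 1266 in wild-type and 1696 in *Sox21* KO, and its normalized signal was 4.73 and 6.15. Its log2 ratio of 0.38 exceeded both the scanner error and the repeat-spot SD of 0.07, and 7.95% of measured genes were at least as high.

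*Bgn* is the only member on chromosome X. Genes that mark the sex of an animal also differed between the arrays, with log2 ratios of -0.80 for *Ddx3y* and -1.25 for *Eif2s3y* on the Y chromosome and of 0.40 for *Xist*, the RNA of the inactive X chromosome. The part of this difference in the value of *Bgn* was not tested. *Aspn* encodes asporin, which lacks the sugar chains of decorin and binds calcium through a stretch of aspartates. Its signal was 490 on the wild-type and 655 on the KO array, with normalized signals of 1.83 and 2.38. The log2 ratio of *Aspn*, 0.38, was close to that of *Bgn*, and the repeat-spot SD at its signal was 0.08. Decorin, biglycan and asporin were thus all higher in *Sox21* KO incisor, by less than 1.5-fold each.

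In the second class, *Lum* encodes lumican, a keratan sulfate proteoglycan that keeps collagen fibrils thin in the cornea and the skin. Its signal of 20853 in wild-type and 22774 in *Sox21* KO gave normalized signals of 77.9 and 82.6. The log2 ratio of *Lum* was 0.09, within its scanner error and over the repeat-spot SD of 0.05. *Fmod* encodes fibromodulin, which binds collagen at the same site as lumican. The signal of *Fmod* was 608 in wild-type and 660 in *Sox21* KO, and its normalized signal was 2.27 and 2.39. Its log2 ratio of 0.08 was no larger than the repeat-spot SD of 0.08 and lay within the scanner error, so the arrays did not separate it. At least as high as *Lum* were 35.9% of measured genes, and as *Fmod* 37.5%.

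*Omd* encodes osteoadherin, also called osteomodulin, a keratan sulfate proteoglycan of mineralized tissue that is made by osteoblasts and odontoblasts and binds hydroxyapatite. Its signal was 3148 in wild-type incisor and 4623 in *Sox21* KO incisor, and its normalized signal was 11.8 and 16.8. The KO value was 42.7% higher, a log2 ratio of 0.51, which was the highest among the members. The repeat-spot SD at its signal was 0.06 in 46 probes, and the log2 ratio came to 2.51 times the scanner error. Of all measured genes 4.35% were at least as high. With the arrays centred on their medians the log2 ratio of *Omd* was 0.61, past 1.5-fold.

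*Kera* encodes keratocan, a keratan sulfate proteoglycan best known from the corneal stroma and also found in other connective tissues. Its probe is the only member probe that is spotted repeatedly, at 10 places on the slide, so its signal was read 10 times per array. On the wild-type array these spots ran from 51.8 to 59.6 with a median of 55.7, and on the *Sox21* KO array from 28.3 to 48.3 with a median of 37.5. All 10 KO spots thus lay below all 10 wild-type spots. The log2 ratio of the single spots ran from -1.10 to -0.23, with a mean of -0.64 ± 0.27 (SD over 10 spots of 1 array pair), which makes *Kera* 1.56-fold lower in *Sox21* KO. These spots hold the same RNA and are no replicates of the genotype.

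**Figure D2:**
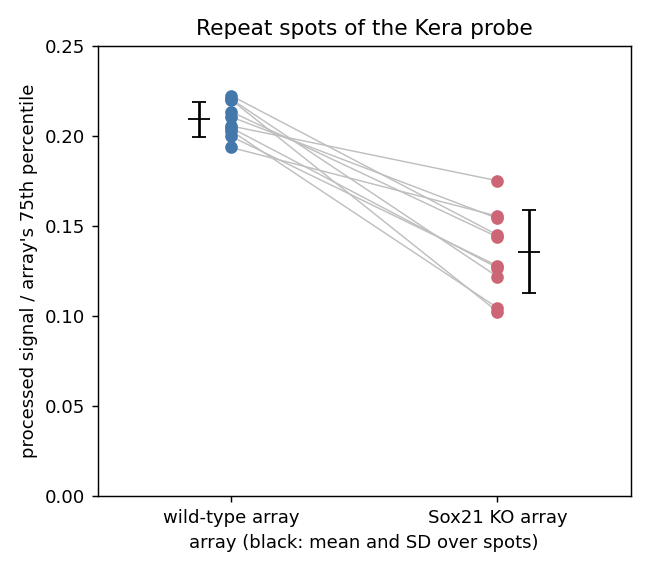
Normalized signal of the 10 spots of the *Kera* probe on each array, on a linear axis, with the mean ± SD over the spots in black. The wild-type spots lie between 0.194 and 0.222 and the *Sox21* KO spots between 0.103 and 0.175, with no overlap.

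The signal of *Kera* was low, at a mean of 56.1 and 37.4, when the lowest signals marked as well above background were 21.3 on the wild-type and 19.5 on the KO array. Before the background was removed, its spots read 83.5 to 108 on the wild-type array and 67.6 to 82.3 on the KO array, again with no overlap, and the median background beside the spots was 28 and 24.5. At such a signal the arrays were less precise than for the other members. Spots of the probe scattered by 4.64% (CV) on the wild-type and by 17.1% on the KO array, and the repeat-spot SD over 37 probes of like signal was 0.28. Of all 269 measured probes with repeated spots, 11.5% had every KO spot below every wild-type spot, and 3 had a log2 ratio as low as *Kera* or lower, itself included. Among the 690 measured genes with signals like that of *Kera*, 8.7% were at least 1.5-fold lower, a larger share than over all measured genes. The size of the *Kera* value also depends on how low signals are treated. With a model-based background correction (normexp) of the raw intensities and an offset of 50 its log2 ratio was -0.29, with that correction and no offset it was -0.50, and with the offset alone added to the processed signal it was -0.32. With the arrays centred on their medians in place of the 75th percentile it was -0.55, and with each of these choices *Kera* was less than 1.5-fold lower.

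*Prelp* encodes prolargin, which anchors basement membranes to the collagen beneath them. Its signal was 5.32 ± 5.34 (scanner error) on the wild-type and 5.36 ± 5.01 on the KO array, so neither array had it well above background and it has no ratio. In the third class, *Ogn* encodes mimecan, also called osteoglycin, a small keratan sulfate proteoglycan first isolated from bone. The signal of *Ogn* was 6877 in wild-type and 7835 in *Sox21* KO, and its normalized signal was 25.7 and 28.4. Its log2 ratio was 0.15, within the scanner error and over the repeat-spot SD of 0.06, and 26.3% of measured genes were at least as high. *Epyc* encodes epiphycan, a proteoglycan of growth plate cartilage. Its signal was 9.35 ± 4.66 in wild-type and 10.7 ± 4.23 in *Sox21* KO, again not well above background, and it too has no ratio.

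**Figure D3:**
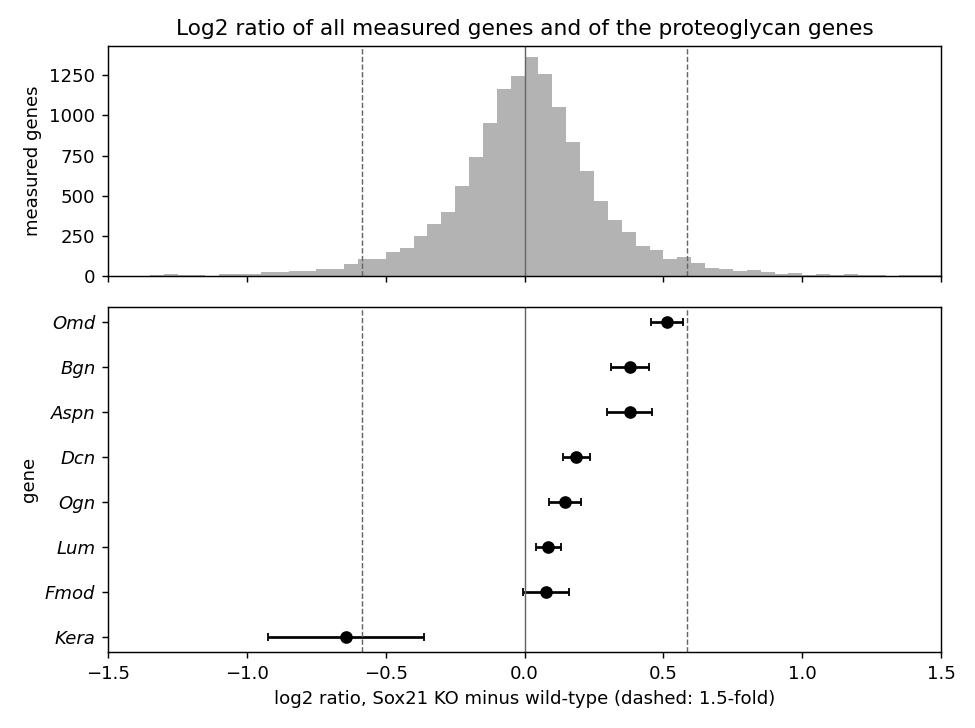
Log2 ratio of *Sox21* KO over wild-type for the 8 measured genes, beside the distribution over all measured genes. Bars are the median SD of the log2 ratio between repeated spots of probes of like signal, and dashed lines mark 1.5-fold in either direction. *Omd* at 0.51 lies inside the upper line, and *Kera* at -0.64 lies just past the lower one with the longest bar.

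Most of the family lies in clusters of neighbouring genes. In the coordinates of the files (mm9), the probes of *Dcn* (chr10:96980233-96980292), *Lum* (chr10:97035210-97035269), *Kera* (chr10:97076230-97076289) and *Epyc* (chr10:97143965-97144024) span 164 kb. Those of *Aspn* (chr13:49662479-49662538), *Omd* (chr13:49687847-49687906) and *Ogn* (chr13:49719549-49719608) span 57.1 kb with 0 other probes between them. *Prelp* (chr1:135806855-135806914, minus strand) and *Fmod* (chr1:135943998-135944057) lie 137 kb apart, and *Bgn* (chrX:70738554-70738613) stands alone. On chromosome 13 all 3 neighbours were higher in *Sox21* KO, with log2 ratios of 0.38, 0.51 and 0.15 along the cluster. On chromosome 10 the neighbours did not move together, since *Dcn* had 0.19, *Lum* 0.09 and *Kera*, the next gene along, -0.64.

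**Figure D4:**
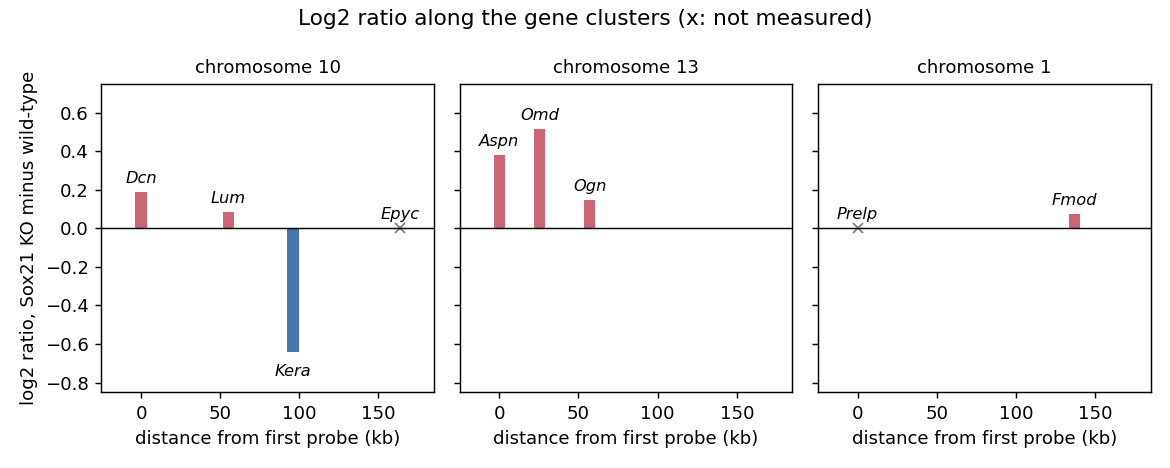
Log2 ratio of *Sox21* KO over wild-type along the 3 clusters, against the distance in kb from the first member probe of each. Crosses mark genes not well above background. The 3 genes on chromosome 13 lie above 0, while on chromosome 10 *Dcn* and *Lum* lie above 0 and *Kera* below.

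The nearest 3 measured genes on each side of the 4 positions gave 24 genes outside the family, of which 11 were higher and 13 lower, with a median log2 ratio of -0.01 and a range from -0.57 to 0.45. Beside the cluster on chromosome 13 lies *Ecm2*, a related leucine-rich matrix gene, which had a log2 ratio of -0.16. The other 5 measured genes that flank that cluster had log2 ratios between -0.19 for *Cenpp* and 0.22 for *Nol8*. Those around the chromosome 10 cluster ranged from -0.29 for *Atp2b1* to 0.20 for *Eea1*.

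The sequence before the start of a gene was looked up for the members in the RefSeq promoters of GRCm38.p6, which matched 8 of them, with a pair of starts for *Epyc*. Those of *Omd* and *Kera* are shown because these were the highest and the lowest member, as the 250 bases before the start, 5′ to 3′. Capitals mark ACAAT or, on the other strand, ATTGT, a short core shared by the sites that Sox proteins bind. The window of *Omd* is chr13:49582212-49582461 on the plus strand, with a match that starts 123 bases before the gene. That of *Kera* is chr10:97606955-97607204 on the plus strand, with matches 181 and 5 bases before it.
Omd: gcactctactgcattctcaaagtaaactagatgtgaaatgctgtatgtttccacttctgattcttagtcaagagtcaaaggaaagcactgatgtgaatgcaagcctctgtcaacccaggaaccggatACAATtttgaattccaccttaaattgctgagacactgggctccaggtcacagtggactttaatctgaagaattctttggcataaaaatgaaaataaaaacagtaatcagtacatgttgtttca
Kera: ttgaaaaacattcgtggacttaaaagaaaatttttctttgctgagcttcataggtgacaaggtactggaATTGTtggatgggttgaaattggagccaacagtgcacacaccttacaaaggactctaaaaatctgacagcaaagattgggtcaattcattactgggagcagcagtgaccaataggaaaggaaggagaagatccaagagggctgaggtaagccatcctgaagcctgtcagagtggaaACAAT
The core was found in 6 of the 9 member windows, those of *Aspn*, *Omd*, *Prelp*, *Kera* and *Epyc*, and in 27.7% of all 32851 windows of this length. Both the highest and the lowest member hold it. *Bgn* and *Ogn*, which were higher in *Sox21* KO, and *Fmod*, which the arrays did not separate, do not hold it within this window. The box TATAAA, searched on both strands as well and with no overlap with the core, was present in the windows of *Aspn* and *Ogn*, that is in 2 of 9, and in 12.4% of all windows. A match of this kind is a description of the letters and no evidence of binding.

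Further leucine-rich proteoglycans and their relatives showed no shared direction. Of 8 such genes 6 were measured, 3 higher and 3 lower, with a median log2 ratio of 0.04. *Podn*, which encodes podocan, had a log2 ratio of 0.51 at signals of 45.8 and 67.1, and *Podnl1* had 0.41. *Tsku*, whose product tsukushi inhibits several secreted signals, had -0.28.

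The sugar chains of the family are built by enzymes of their own. Of 6 genes for the linker that joins a chain to the protein 5 were measured, 3 of them higher, with a median of 0.07 that went to -0.039 without the requirement on background. Of 16 genes for chondroitin and dermatan sulfate 15 were measured, 10 of them higher, with a median of 0.08. Among these, *Chst3*, a chondroitin sulfotransferase, was lower at signals of 359 in wild-type and 180 in *Sox21* KO, a log2 ratio of -1.04. The epimerases that turn chondroitin into dermatan sulfate lay on opposite sides, with *Dse* at -0.57 and *Dsel* at 0.71.

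Keratan sulfate is the chain that lumican, fibromodulin, osteoadherin, keratocan and mimecan can carry. Of 7 genes for its synthesis 5 were measured, 4 of them higher, with a median of 0.16. The exception was *Chst1*, the sulfotransferase that adds sulfate to its galactose, with signals of 49224 in wild-type and 24912 in *Sox21* KO and a log2 ratio of -1.02. *B3gnt2*, which extends such chains, had 0.62. *Chst5*, a sulfotransferase for the other sugar of the chain, was well above background on the KO array alone. Its signals of 25.3 in wild-type and 34.3 in *Sox21* KO were low, so no ratio is given.

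The collagens that these proteins bind were higher along with them. Of 14 collagen genes, for fibrillar and fibril-associated collagens and for the microfibrils of collagen VI, 13 were measured and 12 were higher, with a median log2 ratio of 0.27, and their summed normalized signal was 1562 in wild-type and 1758 in *Sox21* KO. Most of the difference in the sum came from *Col1a2*, without which it was 747 and 785. *Col1a1* and *Col1a2*, the chains of the main collagen of bone, dentin and connective tissue, had log2 ratios of 0.11 and 0.26. *Col2a1*, the main collagen of cartilage, had 0.74, and *Col3a1* was the exception at -0.12. Of 8 genes that crosslink collagen 5 were higher, with a median of 0.14, and *Lox*, the enzyme that starts the crosslinks, had 0.61 at its brighter and 0.44 at its other probe. Of 11 genes for proteases that cut members or their collagens and for the helpers of these proteases 9 were measured and 6 were higher. Their median of 0.24 depends on the processing, since it was 0.12 with the mean over the probes of a gene and 0.094 without the requirement on background. *Mmp13*, a collagenase of mineralizing tissue, had 0.88. *Bmp1*, the protease that removes the propeptide of biglycan, had no clear direction, with -0.06 at the brightest of its 3 probes and up to 0.27 at the others.

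Several tissues around and within the tooth make these proteoglycans, so their markers were read on the same arrays. The direction of a listed gene can depend on the probe, since 14 of the 33 listed genes with several measured probes had log2 ratios on both sides of 0. Of 10 fibroblast and mesenchyme genes 9 were measured and 6 were higher, with a summed normalized signal of 82.6 in wild-type and 95.1 in *Sox21* KO, and *Dpt* was not well above background. All 9 bone genes were measured and 8 were higher (6 when the percentile left out control spots or with normexp), with a median log2 ratio of 0.55 and sums of 165 and 219, or of 90.1 and 109 without *Ibsp*. Among them *Dmp1* had 0.93 and *Spp1* 0.82, both genes of mineralized matrix. *Sp7* and *Alpl*, which mark osteoblasts, were both at 0.01, and *Bglap*, the gene of osteocalcin, was at 0.13. *Runx2*, the regulator of the osteoblast lineage, had -0.10 at the brighter probe and 0.24 at the other. The median of the list lay on the same side of 0 as *Omd*, itself a gene of mineralized tissue, and the part of bone cells in the value of *Omd* was not tested.

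Of 11 cartilage genes 8 were measured and 5 were higher (7 with the arrays centred on their medians), with sums of 23.1 and 31.0. Most of the difference in the sums came from *Col2a1*, since the other 7 genes summed to 12.4 and 13.1. Among these fainter genes *Comp* had a log2 ratio of 0.89 and *Hapln1* 0.66, while 3 were lower, down to -0.44 for *Col9a3*. The defining genes *Matn1*, *Matn3* and *Cnmd* were not well above background. All 5 tendon genes were higher (4 with normexp), with sums of 10.4 and 13.9, of which *Egr1*, also an immediate early gene of many cell types, made most of the difference. Without it the sums were 6.46 and 7.58, and *Scx*, *Tnmd* and *Mkx* had log2 ratios of 0.15, 0.18 and 0.03. Most skeletal muscle genes went the other way, since 7 of 8 were lower, with a median log2 ratio of -0.59. The sums of the list were 100 and 68.8, or 69.1 and 49.8 without *Myl1*. The exception was *Myh3* at 0.64 (0.59 at its other probe), and *Myh8* was at -0.07. For the cornea, the tissue that *Kera* is best known from, the defining keratin *Krt12* was well above background on neither array, and the other genes, *Aldh3a1* and *Slurp1*, were higher at 0.43, or 0.22 at its other probe, and at 0.27. Epithelial genes, which mark the tissue that expresses *Sox21*, had sums of 678 and 755 with 4 of 6 higher, but of 253 and 250.3 without *Krt5*. The tooth list had sums of 3300 and 3006 with 4 of 10 higher, or of 2720 and 2637 without *Enam*. Its genes at least 1.5-fold lower were *Amtn* at -1.89, *Klk4* at -1.05, *Enam* at -0.65 and *Mmp20* at -0.62. *Odam* was higher at 0.63, or 0.55 at its other probe. The part of the makeup of the tissue in the values of the 8 measured members was not tested, and with 1 sample per genotype the makeup and the genotype cannot be told apart.

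**Figure D5:**
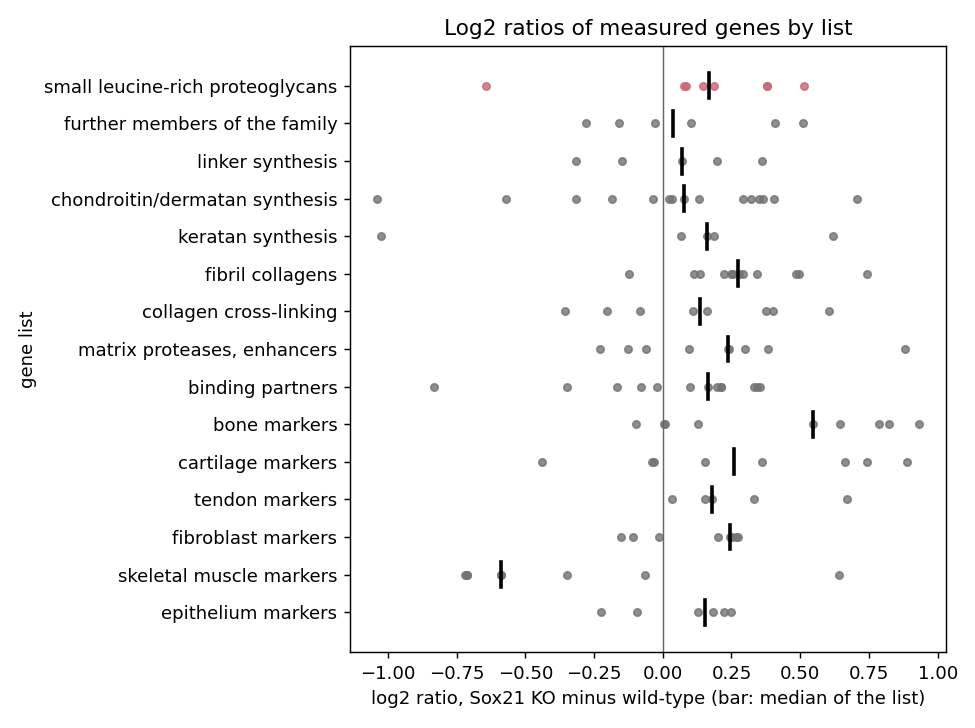
Log2 ratio of *Sox21* KO over wild-type for the measured genes of the family and of the other gene lists, 1 dot for each gene, with a bar at the median of each list. The tooth, cornea and endothelium lists are not drawn. The family has a median of 0.17, the bone list the highest at 0.55, and the muscle list the lowest at -0.59.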

How the data were processed

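Incisor RNA of 1 wild-type and 1 *Sox21* KO sample was read on 2 one-colour Agilent arrays on the same slide. The authors' scanner software, Feature Extraction 10.7.3.1, removed the background and wrote a processed signal intensity for each spot, beside raw intensities. The authors also deposited a linear ratio per probe, the processed signal over 1 divisor per array (268 and 276). These differ by 0.0092% and 0.00616% from the 75th percentiles over all 62976 spots of each array. Here the log2 of the signal over that percentile was averaged over the spots of a probe. The 267 spots marked as outliers were left out, 0 spots were saturated, and 49.7% and 50.4% of spots were well above background. Of several probes for a gene the brightest measured one was used. Symbols followed RefSeq genes of GRCm38.p6, and the match went by accession for 26292 probes, by current symbol for 2049 and by a former one for 355, while 26983 kept the file's name. Coordinates in the files are mm9.

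All 10 members were described. From the other lists, genes were named for the size of their difference or for their role. The sex-linked genes were added outside this rule. The members and lists were chosen with earlier results of these data known. The steps were tested on simulated data. Python 3.11.15, numpy 2.4.6, pandas 2.3.3, matplotlib 3.10.9, R 4.3.3 and limma 3.58.1 were used.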

Additional observations from a re-analysis of the deposited data

How the results depend on the processing

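Of the 8 measured members none changed direction under the alternatives to the scaling and background correction. Each has 1 probe that was measured with no spot marked as an outlier, so the filter on background, the treatment of outlier spots and the rule for several probes could not move their values, and the deposited table holds the same signals. The count of measured members higher in *Sox21* KO was 7 of 8 throughout. Without the requirement on background *Prelp* and *Epyc* were counted as well, and 8 of 10 members were higher. The median log2 ratio of the members lay between 0.15 and 0.26. The ranges were 0.17 to 0.28 for *Dcn*, 0.36 to 0.48 for *Bgn*, 0.31 to 0.47 for *Aspn*, 0.07 to 0.18 for *Lum*, 0.05 to 0.17 for *Fmod*, 0.45 to 0.61 for *Omd*, 0.13 to 0.24 for *Ogn* and -0.66 to -0.29 for *Kera*. Leaving out 1 member at a time gave medians between 0.15 and 0.19. Centring each array on its median moved the median of all genes by 0.10, which left 1 member, *Omd* at 0.61, at least 1.5-fold higher and 0 members 1.5-fold lower. It also gave 135 genes at least 2-fold higher and 63 lower, in place of 102 and 92. With normexp background correction (offset 50) *Kera* had -0.29 and 0 members were 1.5-fold lower, and the 2-fold counts over all genes were 46 and 40. Both parts of this alternative were run alone, chosen after seeing the data. Without the offset *Kera* had -0.50 and the counts were 76 and 68, and with only the offset added to the processed signal it had -0.32 and the counts were 49 and 40. In each case 0 members were 1.5-fold lower. Without the requirement on background those counts were 508 and 695, and 3 list medians changed, that of the cartilage list turning to -0.031, that of the linker list to -0.039 and that of the protease list going to 0.094. With the mean over probes the protease list had 0.12 and the epithelial list 0.016, and with normexp the bone list had 0.37 and the corneal list 0.23. The other 129 of 136 list medians, over the alternatives that were not added later, moved by less than 0.10, the repeat-spot SD over all such probes, though that of the further leucine-rich genes changed sign to -0.011 with normexp. With a limit of 2-fold, chosen after seeing the data, 0 members were lower. The cause of these changes was not tested.

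No difference here has a replicate, and neither error covers the spread between animals. Signal over background limits *Kera*, and it leaves *Prelp* and *Epyc* with no ratio. Each member has 1 probe, so no second probe bears on its value.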

Other observations

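The partners that these proteins bind outside collagen were read from a list of 15 growth factors, receptors and matrix genes, of which 13 were measured. Of these 8 were higher in *Sox21* KO (10 with the arrays centred on their medians), with a median log2 ratio of 0.17. The genes of transforming growth factor beta, which decorin and biglycan hold, had log2 ratios of 0.10 for *Tgfb1*, 0.34 for *Tgfb2* (0.12 at its other probe) and 0.21 for *Tgfb3*. *Bmp4*, a signal of the dental mesenchyme that biglycan binds, was lower, with signals of 7520 in wild-type and 4345 in *Sox21* KO and a log2 ratio of -0.83, and *Bmp2*, a relative of it, had -0.17. Among the receptors *Egfr* had 0.21, *Igf1r* 0.17 and *Met* -0.08. *Lrp1*, which takes up decorin, had no clear direction, with 0.36 at its brighter and -0.35 at its other probe. *Tlr2*, an innate immune receptor for free biglycan, had 0.20. *Tlr4*, the other such receptor, was well above background on the KO array alone. Its signals of 28.6 in wild-type and 56.1 in *Sox21* KO were low, so no ratio is given.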
